A study of Macaca fascicularis and Macaca mulatta and Papio anubis with 20 samples.

Results

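The smooth muscle contractile genes described here are 9 symbols, ACTA2, ACTG2, CNN1, TAGLN, DES, TPM2, MYH11, MYL9 and MYLK, chosen by name from the feature lists and not by their measured values. All 9 were present among the 22000 features counted in *Macaca fascicularis*, the 20842 counted in the sections labelled *Macaca mulatta* and the 21369 counted in those labelled *Papio anubis*. They were measured by Visium, in which RNA from a section is caught on a grid of barcoded spots, and counts are of unique molecular identifiers (UMIs), so that copies of a molecule made in amplification are not counted again. The tissue was fresh frozen dorsal root ganglion, bought from a commercial supplier, cut at 10 µm with sections 100 µm apart. *M. fascicularis* gave 16 sections from 4 title codes, 1 per sex in each of batch 1 and batch 2, with 4 sections to a code. A title code is called a specimen below, although the labels do not say so. The other labelled species gave 2 sections each, under 1 title code per species, all of batch 2 and with no sex given. No group carried a treatment, and age was not in the labels. Values in the sections labelled *M. mulatta* and *P. anubis* are given by label only, because their feature identifiers carry the Ensembl prefix of the other species.

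Smooth muscle cells shorten when myosin heads pull on actin filaments. Calcium and calmodulin switch on myosin light chain kinase (MYLK), which phosphorylates the regulatory light chain (MYL9) bound to the smooth muscle myosin heavy chain (MYH11). The pulled filaments are built from smooth muscle actins (ACTA2, ACTG2) and dressed with tropomyosin (TPM2), calponin (CNN1) and transgelin (TAGLN), while desmin (DES) forms intermediate filaments that tie the contractile units together. In a ganglion such cells are known from the walls of arteries and veins, and some of these genes are also used outside smooth muscle: ACTA2 and TAGLN by pericytes and myofibroblasts, TPM2 and DES by skeletal muscle, and MYL9 and MYLK by many cell types.

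The *M. fascicularis* sections held between 1136433 and 7073134 UMIs under tissue, those labelled *M. mulatta* 190376 and 264661, and those labelled *P. anubis* 595020 and 12595205. The median spot held between 398 and 5145 UMIs over the 15 *M. fascicularis* sections whose spots could be used. Section 3 of the male specimen of batch 2 entered through its summed counts alone. Neuron genes of a list of 12, of which 10 were measured, held between 19164 and 35629 CPM in *M. fascicularis*, so the labelled tissue showed its defining genes in every section. CPM is a gene's UMI count over all UMIs of the section, scaled to 1000000. A list of 10 skeletal muscle genes, of which 5 were measured, held between 8.39 and 52.4 CPM in *M. fascicularis*. Each level below is a sum over a section, in which fewer cells of a type and less RNA per cell cannot be told apart. Sections of a title code may come from 1 animal, so an SD over them measures the spread between sections. The p-values of the tests on UMI sums below refer to the spread between title codes, which may be technical. For batch and sex that spread is largely an estimate shared over features. The p-values in the authors' deposited tables are each for a single section and measure no spread between title codes.

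ACTA2 (ENSMFAG00000000205), the actin that marks vascular smooth muscle, was at 383, 33.9, 66.0 and 38.1 CPM in the 4 female sections of batch 1 and at 69.0, 79.3, 75.3 and 67.2 CPM in the male ones. In batch 2 ACTA2 was at 32.5, 23.5, 26.8 and 16.02 CPM in the female specimen and at 8.08, 33.6, 43.4 and 11.4 CPM in the male one. The first female section of batch 1 stood far above the other 15, and the remaining sections of the batches overlapped. ACTG2 (ENSMFAG00000003169), the actin best known from visceral smooth muscle, ran in batch 1 from 1.53 through a median of 5.95 to 68.3 CPM, the highest again in that section. In batch 2 it ran from 0 through a median of 1.32 to 4.94 CPM. Its 389 UMIs over all *M. fascicularis* sections included 110 in that 1 section, and the section at 0 allows up to 2.64 CPM (3 counts, counting error only).

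The genes that sit on the thin filament differed in their pattern. TAGLN (ENSMFAG00000036871), an actin cross-linking protein and early marker of the lineage, was at 342, 87.5, 124 and 94.8 CPM in the female specimen of batch 1 and at 118, 130, 160 and 101 CPM in the male one. It was at 186, 158, 182 and 154 CPM in the female specimen of batch 2 and at 44.7, 158, 265 and 90.6 CPM in the male one. The batches overlapped, and the male specimen of batch 2 held both the lowest and, after the first female section of batch 1, the highest value. CNN1 (ENSMFAG00000044196), which restrains the myosin motor, ran from 3.11 through 6.88 to 75.8 CPM over the 8 sections of batch 1 and from 1.58 through 4.01 to 7.92 CPM over those of batch 2. TPM2 (ENSMFAG00000002090), a tropomyosin that guards the myosin sites on actin, ran from 44.7 through 58.9 to 138 CPM in batch 1 and from 14.6 through 35.0 to 45.4 CPM in batch 2. For TPM2 a single section of batch 2, at 45.4 CPM, lay above the lowest section of batch 1.

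On the myosin side, MYL9 (ENSMFAG00000000687) was at 273, 82.1, 203 and 299 CPM in the female specimen of batch 1 and at 166, 190, 233 and 145 CPM in the male one. In batch 2 MYL9 was at 86.5, 93.2, 131 and 89.8 CPM in the female specimen and at 68.3, 97.7, 214 and 42.2 CPM in the male one. MYL9 differed from the actins in that the first female section of batch 1 was not its highest section. MYLK, the kinase, gave 82 UMIs in all of *M. fascicularis*, from 1.02 to 3.73 CPM in batch 1 and from 0 to 1.69 CPM in batch 2. MYH11 gave 16 UMIs, at most 2 in a section, and was at 0 in 7 of 16 sections. The heavy chain most often used to define smooth muscle was therefore near the counting floor in *M. fascicularis*. DES (ENSMFAG00000036498) ran from 0.807 through 3.64 to 23.6 CPM in batch 1 and from 4.04 through 9.12 to 12.8 CPM in batch 2, the highest value again in the first female section of batch 1.

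**Figure D1:**
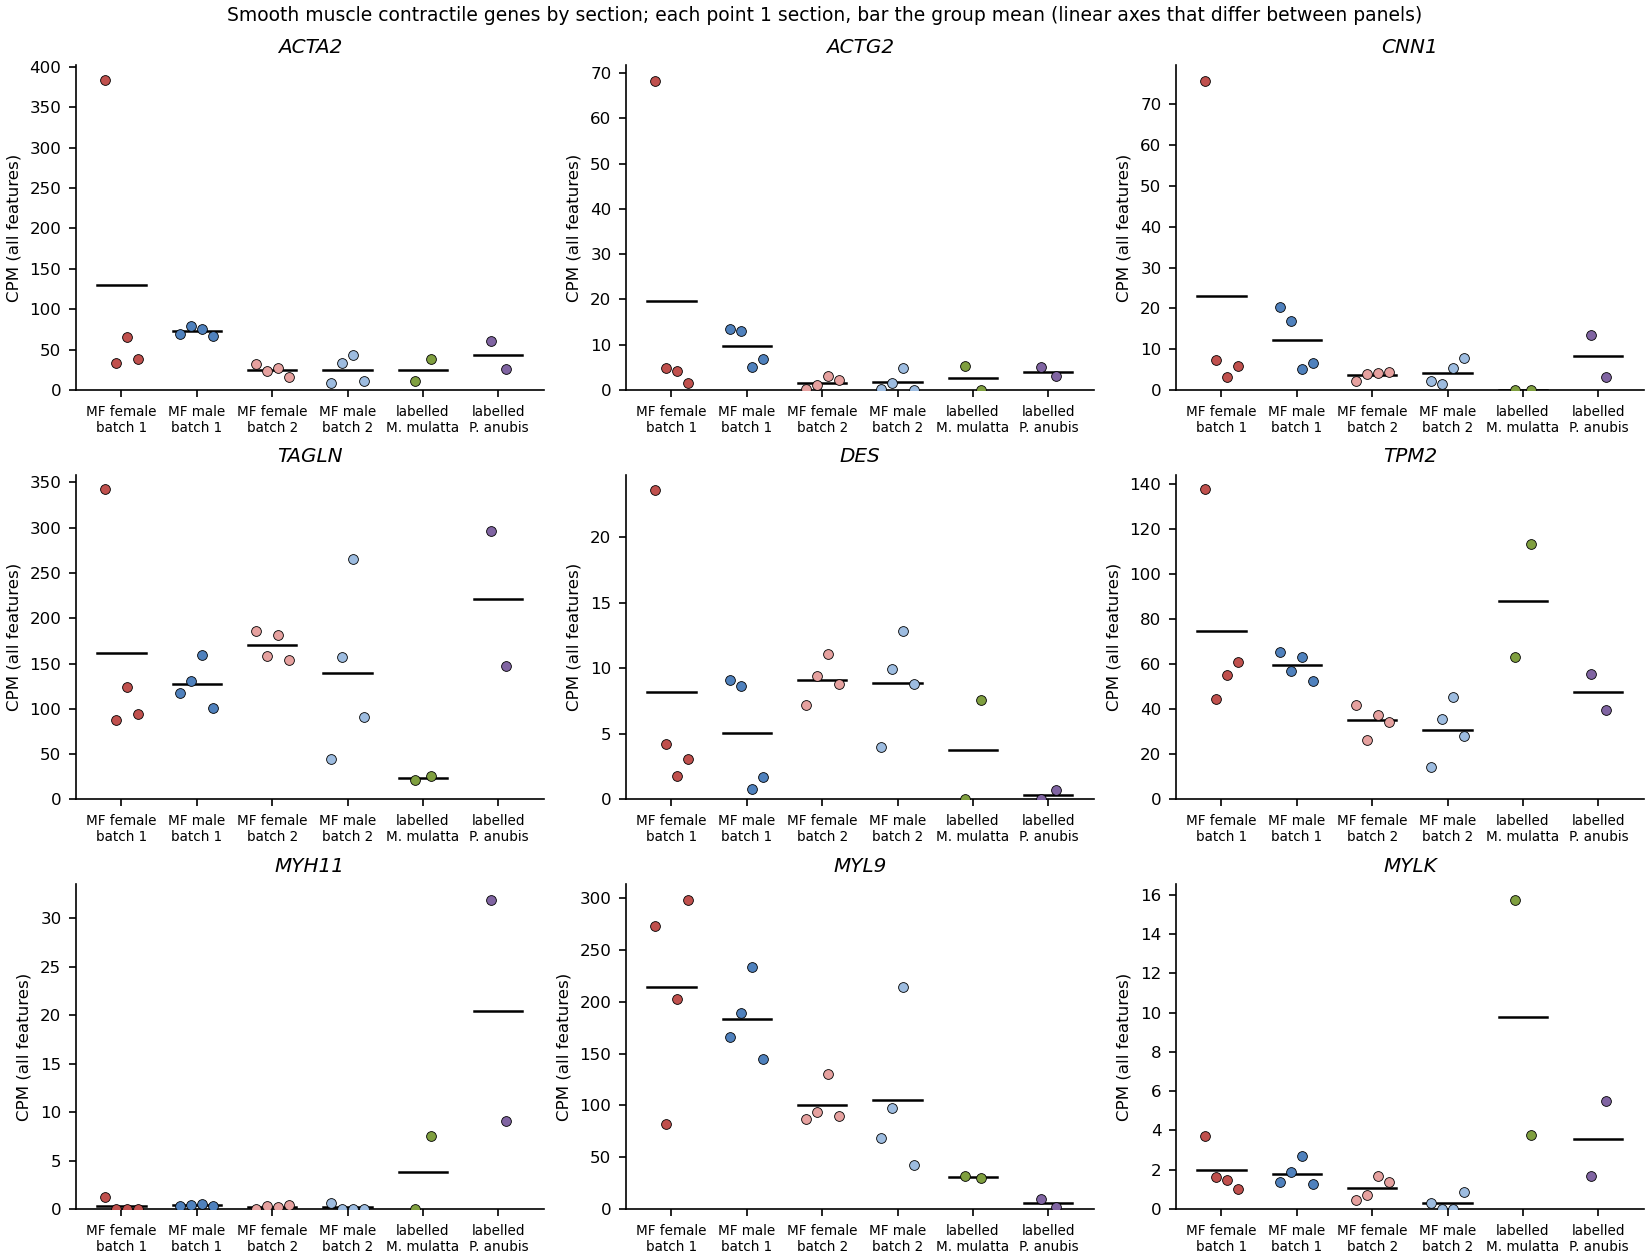
CPM of each contractile gene in each of the 20 sections, by group; 1 panel per gene, each point 1 section, the bar the group mean, linear axes that differ between panels. ACTA2, ACTG2, CNN1, TAGLN, DES and TPM2 have their highest *M. fascicularis* point in the first female section of batch 1, and MYH11 is near 0 except in the sections labelled *P. anubis* and 1 labelled *M. mulatta*.

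Summed over the 9 genes, the level was 635 ± 462 CPM (SD, n = 4 sections) in the female specimen of batch 1, 472 ± 68.6 in the male one, 346 ± 39.6 in the female specimen of batch 2 and 316 ± 202 in the male one. Without section 1, the female specimen of batch 1 was at 410 ± 126 CPM (SD, n = 3). None of the 9 genes separated the 8 sections of batch 1 from the 8 of batch 2 without overlap; over 17322 features with a UMI, 1.93% lay wholly higher in batch 2 and 4.02% wholly lower. None separated the sexes either, where 0.0% of features lay wholly higher in females and 0.0404% wholly lower.

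The actins were lower in batch 2. In edgeR's quasi-likelihood test on UMI sums per specimen, with sex in the model and Benjamini-Hochberg adjustment over 12650 features, ACTA2 fell by 1.59 on the log2 scale (SE 0.21, adjusted p = 0.0112) and ACTG2 fell by 2.42 (SE 0.43, adjusted p = 0.0304). These were 2 of the 8 contractile genes tested, against a background of 1.61% of features called lower, 1.26% called higher and 2.88% called in either direction. The log2 differences of the other 6, batch 2 minus batch 1, did not pass: CNN1 -1.57 (adjusted p = 0.0763), MYLK -1.25 (0.396), TPM2 -0.81 (0.102), MYL9 -0.76 (0.107), TAGLN 0.35 (0.45) and DES 0.98 (0.219), by the same test. The median over the 8 was -1.03, beside -0.01 over all features tested. MYH11 was below the filter on low counts.

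The batch call depended on single sections, for the actins and over all features. Without the first male section of batch 2 neither actin passed (edgeR adjusted p = 0.0596 for ACTA2 and 0.0883 for ACTG2). Over all features 115 of 12676 were then called, beside 364 of 12650 with every section. ACTG2 was also lost without the second male section of batch 2 (adjusted p = 0.0632), where 120 of 12640 features were called. It was lost without the first female section of batch 1 as well (0.0909), where 674 of 12582 features were called. In that last fit ACTA2 kept a difference of -1.22 (adjusted p = 0.0178, all by edgeR). Each batch holds 1 specimen of each sex and 1 version of Space Ranger, so batch, animal and software version cannot be told apart. Genes of other cells moved with the batch. Of 9 fibroblast genes tested 6 were lower in batch 2, with log2 differences of -7.00 for COL3A1, -4.93 for LUM and -4.90 for COL1A2, all collagen chains or collagen-binding matrix proteins, and -4.62 for PI16, a marker of adventitial fibroblasts. The summed fibroblast list ran from 1315 to 3771 CPM in the sections of batch 1 and from 254 to 1288 CPM in those of batch 2. Its part in the batch difference of the actins was not tested.

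Other contractile genes were mostly not called by batch. Of 14 tested genes of the wider contractile apparatus 1 was lower, CALD1, a filament-binding partner of tropomyosin (-1.76, edgeR adjusted p = 0.0329). Among 11 genes that control contraction 1 was lower, GUCY1A1, a subunit of the nitric oxide receptor (-3.84, edgeR adjusted p = 0.0319). Among 6 pericyte genes 1 was lower, RGS5 (-2.95, edgeR adjusted p = 0.0284). The 10 tested non-muscle counterparts were actins, myosin chains, calponins, transgelins and vimentin. None of them and none of the 9 endothelial genes was called, although 1 and 6 of them had an unadjusted p under 0.05 in the same edgeR fit.

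Between the sexes no difference was detected. The 8 tested genes were all on the female side, by between 0.09 and 0.68 on the log2 scale, with none called (edgeR, adjusted p = 0.998 for each) and none with an unadjusted p under 0.05. Without the first female section of batch 1 only 4 of the 8 were on that side, with a median of -0.04, and without the first male section of batch 2 only 3. Over all 12650 features 0.0% were called and 169 had an unadjusted p under 0.05. DESeq2 and limma-voom also called none.

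Labelled species were compared without a test, on CPM over the 13089 symbols that occur once in each feature list. In the sections labelled *P. anubis* MYH11 was at 58.1 and 16.8 CPM, against 0 to 1.87 CPM over the 16 *M. fascicularis* sections, a ratio of means of 88.6. The counts behind it were 19 and 114 UMIs, against 16 UMIs in all of *M. fascicularis*. MYL9 was at 18.3 and 2.79 CPM from 6 and 19 UMIs, against 63.9 to 460 CPM in *M. fascicularis*, a ratio of 0.0451. Of the 9 genes 1 thus lay wholly above the *M. fascicularis* range in both such sections and 1 wholly below, against 13.7% of shared symbols above it and 14.1% below, so neither count is a result about the contractile genes as a group. How far the gene models of the different references count the same transcripts was not tested.

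The other 7 genes overlapped the *M. fascicularis* range in the sections labelled *P. anubis*. Over the shared symbols ACTA2 was at 79.4 ± 43.5 CPM (SD, n = 2), against 96.7 ± 133 CPM (SD, n = 16) in *M. fascicularis*, and TAGLN was at 406 ± 187 against 235 ± 113 CPM. DES was at 0 and 1.32 CPM, with a section of *M. fascicularis* at 1.24 CPM. The 9 genes summed to 650 ± 300 CPM in the sections labelled *P. anubis* and to 687 ± 392 CPM in *M. fascicularis*.

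The sections labelled *M. mulatta* held few UMIs, and their values carry wide counting error. ACTA2 gave 2 and 10 UMIs there, TAGLN 4 and 7, and MYL9 6 and 8. CNN1 gave none in either section, which allows up to 15.8 and 11.3 CPM over all features (3 counts). That limit lies above most *M. fascicularis* sections, so the place of CNN1 is not settled. TAGLN and MYL9 lay below all *M. fascicularis* sections and MYLK above, on 3 and 1 UMIs; the background was 35.1% of shared symbols below and 14.1% above. A share near that background is no result about these genes. TPM2, from 12 and 30 UMIs, was at 124 and 222 CPM over the shared symbols, beside 22.4 to 207 CPM in *M. fascicularis*. Summed fibroblast genes were at 5615 and 10833 CPM over all features and neuron genes at 15144 and 6537, outside the *M. fascicularis* ranges of both lists, and their part in these levels was not tested.

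Where in the tissue the contractile genes lay was asked by comparing spots. A spot covers a patch of tissue in which cells of several types can lie. Among the 14724 *M. fascicularis* spots with at least 500 UMIs, the spots of each section with the highest share of UMIs in a list of neuron, endothelial, fibroblast or myelin genes were set against the other spots of that section. High spots were the top 25%, or the top 10% for endothelium. None of these lists contains a contractile gene of the 9. UMI sums per specimen and class were tested with edgeR's quasi-likelihood test, specimens as blocks. MYH11 and MYLK were below the filter, leaving 7 genes. Without specimens as blocks, 0, 2, 1 and 0 of the 7 passed in the neuron, endothelium, fibroblast and myelin comparisons. Of all features, 62 of 11339, 39 of 10126, 46 of 10163 and 0 of 10192 were then called. In the endothelium and neuron comparisons no difference between the batches was called for any of the 7 genes, where 0.0% and 0.115% of features were called for one (edgeR interaction).

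Neuron-rich spots held less of the contractile genes. ACTA2 was at 24.8, 21.1, 7.58 and 6.62 CPM in the neuron-rich spots of the 4 specimens and at 118, 108, 26.0 and 14.7 CPM in the other spots. It was lower in every specimen and in 14 of 15 sections, with a fitted log2 difference of -2.07 (SE 0.11, edgeR adjusted p = 1.15e-09). All 7 tested genes fell in neuron-rich spots, by edgeR's test, against a background of 22.7% of features called lower, 20.3% called higher and 43.0% in either direction. The fitted log2 differences were -2.13 for ACTG2, -1.54 for MYL9, -1.33 for CNN1, -1.26 for TAGLN, -0.997 for TPM2 and -0.78 for DES (adjusted p = 0.0178). Neuron-rich spots were also the deepest, with a median of 5432 UMIs against 1729 elsewhere. With high spots chosen within 5 equal bands of UMI total in each section, 6 of 7 genes still fell and DES was at -0.51 (edgeR adjusted p = 0.0794). Over all features 4093 of 10718 were called within the bands. Without the batch 1 male, DES was also lost (-0.39, edgeR adjusted p = 0.198), as it was with DESeq2 (adjusted p = 0.07). Outside the fibroblast-rich spots 4 of 7 fell (ACTA2, MYL9, TPM2 and TAGLN), with DES at -0.03, CNN1 at -0.21 and ACTG2 at -0.61. There 4412 of 11316 features were called.

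Non-muscle relatives did not follow as one group in neuron-rich spots. Of 10 tested, 6 were lower and 1, MYH10, a non-muscle myosin heavy chain used in neurons, was higher by 1.01 (SE 0.07). MYH9 was at -0.55, CNN2 at -0.74 and VIM, the intermediate filament of mesenchymal cells, at -0.50. Of 13 tested genes of the wider contractile apparatus 5 were lower and 1 higher, led by CALD1 at -1.14, the actin cross-linker FLNA at -0.69, SMTN at -0.43 and PDLIM7 at -0.28. Of 11 control genes 6 were lower and 1 higher. ROCK1, the kinase that keeps the light chain phosphorylated, was at -0.86, and PPP1R14A, an inhibitor of myosin phosphatase, at -0.78. The small GTPase RHOA was at -0.27, while GUCY1B1, the partner subunit of the nitric oxide receptor, was at 0.30 (all called by edgeR).

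Endothelium-rich spots held the contractile genes at high levels. ACTA2 was at 547, 816, 195 and 57.0 CPM in the endothelium-rich spots of the 4 specimens and at 60.6, 39.0, 13.3 and 9.42 CPM in the other spots. It was higher in each specimen and in 14 of 15 sections. In the fourth section of the batch 2 male it was at 0 CPM in the 42 endothelium-rich spots and at 13.0 CPM elsewhere, and between sections the classes overlapped in the batch 1 female and the batch 2 male. All 7 tested genes rose, against a background of 13.5% of features called higher, 10.1% lower and 23.6% in either direction (edgeR). The log2 differences were 3.83 for ACTG2 (SE 0.32), 3.68 for ACTA2 (SE 0.18, adjusted p = 4.53e-13) and 3.51 for CNN1 (SE 0.28). They were 3.11 for DES, 2.62 for TAGLN, 2.24 for TPM2 and 2.12 for MYL9. The 9 genes summed to 1821 ± 1145 CPM (SD, n = 4 specimens) in these spots and to 279 ± 114 CPM elsewhere, and the sum was higher in 15 of 15 sections.

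Endothelium-rich spots were shallow, with a median of 937 UMIs against 2858, and 49.3% of them were also fibroblast-rich. With high spots chosen within the 5 bands of UMI total all 7 genes rose by smaller amounts, from 0.92 for MYL9 to 2.70 for ACTG2. Over all features 818 of 10311 were called within the bands. Outside the fibroblast-rich spots, where 1014 of 9621 features were called, the 6 genes that could be tested all rose, ACTA2 by 3.17. Genes fixed to the same pathway moved with them. Of 13 tested genes of the wider apparatus 9 rose and none fell, with CALD1 at 1.90, FLNA at 1.43, the actin bundler ACTN1 at 1.26 and CSRP1 at 0.74. Of 8 control genes 6 rose, with ROCK1 at 1.49, PPP1R14A at 1.29, the calcium release channel ITPR1 at 1.03 and the phosphatase subunit PPP1CB at 0.49. Of 5 pericyte genes 4 rose, with COX4I2 at 2.16, RGS5 at 1.92, PDGFRB at 1.84 and HIGD1B at 1.76 (all called by edgeR), and the share of smooth muscle and pericytes in the level of ACTA2 was not tested. Non-muscle counterparts were mixed, 4 of 10 higher and 1 lower.

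Fibroblast-rich spots gave a like picture. ACTA2 was at 600, 535, 120 and 33.1 CPM in the fibroblast-rich spots of the 4 specimens and at 31.9, 26.0, 10.3 and 7.54 CPM in the others, higher in 15 of 15 sections. TAGLN was at 825, 760, 787 and 168 CPM against 62.1, 59.1, 77.2 and 53.8 CPM. Both genes were higher in fibroblast-rich spots in each specimen, with the smallest ratio in the male specimen of batch 2. All 7 tested genes rose, against a background of 15.7% of features higher, 11.7% lower and 27.4% in either direction (edgeR). The log2 differences were 4.08 for ACTG2 (SE 0.27), 3.82 for ACTA2 (SE 0.26), 3.18 for TAGLN, 2.99 for CNN1, 2.65 for DES, 2.38 for MYL9 and 2.36 for TPM2. All 7 also rose with high spots chosen within the 5 bands of UMI total, by 0.94 for MYL9 to 2.28 for ACTA2, and all 6 that could be tested rose outside the endothelium-rich spots. Over all features 1549 of 10615 were called within the bands and 2432 of 10022 outside the endothelium-rich spots. With DESeq2 CNN1 did not pass (2.14, adjusted p = 0.0686). Of the wider apparatus 7 of 13 rose, of the control genes 6 of 8 and of the pericyte genes 2 of 4. The batches were also compared within this contrast. CNN1 had a smaller difference in batch 2 by 3.35 in log2 terms (edgeR interaction, batch 2 minus batch 1, -3.35, adjusted p = 0.0237), where 0.276% of features were called. That value rests on 7 and 2 CNN1 UMIs in the fibroblast-rich spots of the specimens of batch 2, beside 106 and 129 in batch 1.

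In myelin-rich spots MYL9 had the highest fitted difference of the 7 genes. MYL9 was at 877, 975, 219 and 121 CPM in the myelin-rich spots of the 4 specimens and at 139, 117, 48.0 and 36.1 CPM in the others. It was higher in 14 of 15 sections and rose by 2.47 (SE 0.20, adjusted p = 4.43e-05, edgeR). CNN1 (1.42), ACTA2 (1.06), TAGLN (1.05) and TPM2 (0.81) also rose, which makes 5 of 7, against a background of 12.2% of features higher, 7.93% lower and 20.1% in either direction. ACTG2 (1.08, adjusted p = 0.0605) and DES (0.70, adjusted p = 0.213) did not pass by the same edgeR test. Myelin-rich spots held a median of 904 UMIs against 3657, and with high spots chosen within the 5 bands of UMI total MYL9 alone was called (0.83, SE 0.06, edgeR adjusted p = 7.49e-07). Over all features 1098 of 10613 were called within the bands. ACTA2 was then at -0.17, ACTG2 at -0.20, TAGLN at -0.24, DES at -0.35 and TPM2 at 0.11, none past the threshold by edgeR. With spots ranked by the myelin share of their neighbours instead of their own, ACTA2 alone passed (1.35, edgeR adjusted p = 0.0438) and MYL9 was at 1.93 (adjusted p = 0.0653). Of 10432 features tested with that ranking, 26 were called. Without the female specimen of batch 1 the comparison of all spots called 3 of the 6 genes that could be tested, with CNN1 and TPM2 lost. It then called 568 of 10205 features. The MYL9 difference was smaller in batch 2 (interaction -0.83, edgeR adjusted p = 0.000473), in a contrast where 14.6% of features were called for such a difference between batches.

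**Figure D2:**
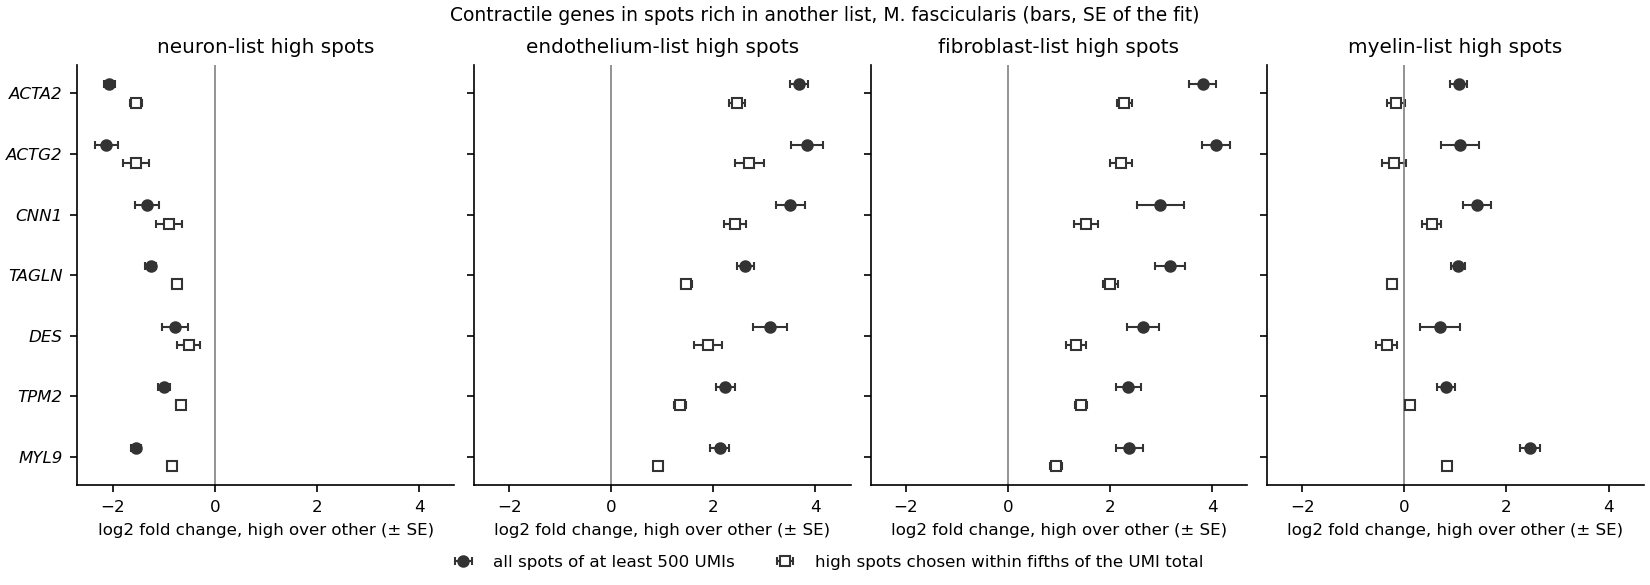
Fitted log2 fold change (± SE of the fit over 4 specimens) of the 7 testable contractile genes in neuron-, endothelium-, fibroblast- and myelin-rich spots over the other spots; filled points use all spots with at least 500 UMIs, open squares choose the rich spots within the 5 bands of UMI total. All 7 points lie below 0 for neurons and above 0 for endothelium and fibroblasts in both versions, while for myelin the open squares of ACTA2, ACTG2, TAGLN and DES lie below 0.

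The actins, TAGLN and MYL9 formed spatial patterns in the authors' deposited tables. These give Moran's I, a score near 0 for a gene scattered over spots and above 0 where neighbouring spots are alike, with an adjusted p per gene and section. At an adjusted p under 0.05 in the authors' deposited tables, ACTA2 passed in all 8 batch 1 sections, with scores from 0.119 through a median of 0.264 to 0.402, and in 7 of 8 of batch 2, with a median of 0.0462. TAGLN passed in 8 of 8 (median 0.248) and 6 of 8 (median 0.108), and MYL9 in 8 of 8 (median 0.236) and 7 of 8 (median 0.0567), in the authors' deposited tables. ACTG2 passed in 8 of 8 sections of batch 1 (median 0.153) and in 0 of the 7 of batch 2 that list it, in the authors' deposited tables, where it gave at most 4.94 CPM. CNN1 passed in 7 and 1, TPM2 in 8 and 4, DES in 6 and 4, and MYLK in 2 and 0 sections of batch 1 and batch 2. MYH11 passed in none of the 9 sections that list it. The background in the authors' deposited tables was 21.3% of gene entries in batch 1, 10.9% in batch 2 and 16.2% over both.

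In the authors' deposited tables for the sections labelled *P. anubis*, TAGLN scored 0.1 and 0.373 and ACTA2 0.036 and 0.117, passing in both sections. In the second of them MYH11 passed at 0.0716, beside TPM2 at 0.0672, MYLK at 0.0538, ACTG2 at 0.0386 and CNN1 at 0.0345, while MYL9 and DES did not pass; 14.1% of gene entries passed under that label. In the first section MYH11 was at -0.00046 (adjusted p = 1.0 in the authors' deposited table) and did not pass. Under the label *M. mulatta*, where 3.04% of entries passed in the authors' deposited tables, ACTA2 (0.0766, from 2 spots) and TAGLN (0.0553, from 4 spots) passed in section 1 and no contractile gene in section 2.

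**Figure D3:**
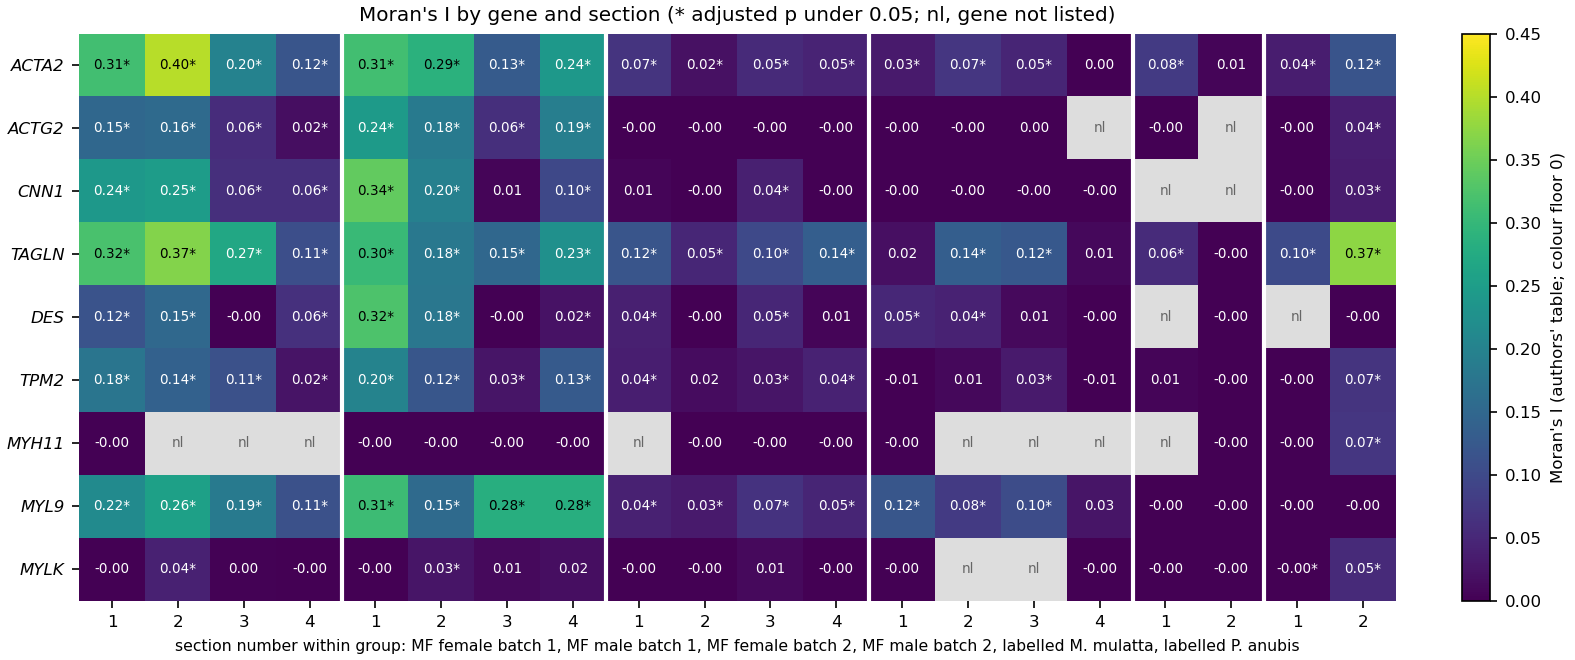
Moran's I from the authors' tables for the 9 contractile genes (vertical) in the 20 sections (horizontal, by group); colour and number give the score, a star an adjusted p under 0.05, and "nl" a gene that the table of that section does not list. ACTA2 reaches 0.402 in the sections of batch 1 on the left, TAGLN reaches 0.373 in the second section labelled *P. anubis*, and MYH11 has a star only under the label *P. anubis*.

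The genes were also found together in single spots. For each pair, the odds of finding at least 1 UMI of both in a spot were set against chance within strata of section and UMI total, and the log2 odds ratios were averaged over the 4 specimens; spots are not replicates, so no p is given. A value in all 4 specimens existed for 18 of 36 pairs, and 17 of them were above 0 in every specimen. The exception was DES with MYL9, 0.52 ± 1.14 (SD, n = 4 specimens), lowest -0.87. The 18 values ran from 0.46 for TPM2 with MYL9 to 4.27 ± 1.44 for ACTG2 with DES, with a median of 1.55. Over spots with at least 1000 UMIs 12 pairs had such a value, 10 of them above 0 in every specimen, and the median was 0.96.

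The actin pair shows the size of this. ACTA2 was detected in 1424 spots and ACTG2 in 226, and both in 148, where 38.6 were expected from their frequencies within the strata. The joint spots were 65.5% of the ACTG2 spots and 10.4% of the ACTA2 spots, and the log2 odds ratio was 4.10 ± 1.11 (SD, n = 4 specimens). ACTA2 with TAGLN shared 828 spots, 58.1% of the ACTA2 spots and 21.2% of the TAGLN spots, at 2.05 ± 0.40. Of MYL9 the log2 odds ratio was 0.86 ± 0.21 with ACTA2, 0.60 ± 0.37 with TAGLN and 0.46 ± 0.37 with TPM2, and together with its value for DES these were the lowest of the 18. Beyond the 9 genes, ACTA2 spots held a gene of the endothelium list more often than expected (1.15 ± 0.16) and of the pericyte list by less (0.42 ± 0.20). They held adipocyte genes less often (-1.04 ± 0.65). MYL9 with the endothelium list was at 0.22 ± 0.21 and with the myelin list at 0.98 ± 1.31, whereas ACTA2 with the myelin list was at -0.96 ± 0.68.

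**Figure D4:**
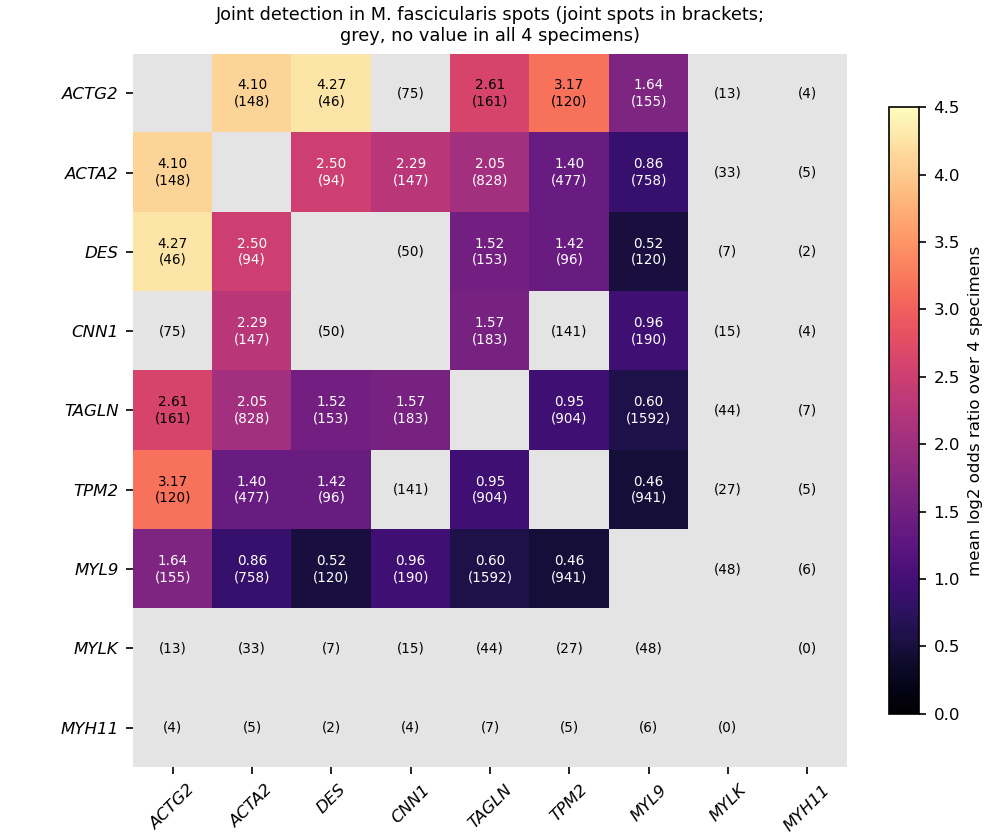
Mean log2 odds ratio of joint detection over the 4 *M. fascicularis* specimens for each pair of contractile genes, with the number of joint spots in brackets; grey marks pairs without a value in all 4 specimens. ACTG2 with DES (4.27) and with ACTA2 (4.10) are the brightest cells, and the pairs of MYL9 with ACTA2, TAGLN, DES, TPM2 and CNN1 are all below 1.

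Spots with 3 or more of the 9 genes formed patches in batch 1. They made up 7.69% to 25.4% of the spots with at least 500 UMIs in its 8 sections, and the largest run of touching spots held between 11 and 38 spots. In batch 2 they made up 0.312% to 11.3%, and no patch was larger than 5 spots. With each spot thinned to 500 UMIs the shares were 0.881% to 8.32% and 0% to 1.45%, and the ranges of the batches overlapped with and without thinning. In the first female section of batch 1, 116 of 457 spots were of this kind. They carried 77.6% of the contractile UMIs and 32.7% of all UMIs of all tissue spots of that section, shallower ones included. In the second section labelled *P. anubis* 98 of 2207 spots (4.44%) held 3 or more genes, the largest patch 8 spots, and none did in the other 3 sections of that label and of *M. mulatta*, which have 11, 29 and 233 such deep spots.

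Detection per spot depended on depth. At 500 UMIs per spot, a median of 27.3% of spots per section held any of the 9 genes in batch 1 (8040 spots, 1663 shallower ones left out) and 19.1% in batch 2 (6684 spots, 5510 left out). Without thinning the medians were 65.9% and 52.5%. ACTA2 was found in a median of 4.48% and 1.95% of thinned spots, MYL9 in 17.5% and 6.21%, and TAGLN in 7.71% and 10.2%. Capture spots outside the tissue that reached that depth, 1324 in batch 1 and 341 in batch 2, gave when thinned alike 6.17% and 0.99% for ACTA2, 5.92% and 3.57% for MYL9 and 9.07% and 24.6% for TAGLN. By these medians TAGLN in both batches and ACTA2 in batch 1 were below the share in spots without tissue. The spots outside were chosen by depth, and mean UMIs per spot off the tissue were highest next to the tissue in each section. The part of transcripts from the nearby tissue in the share outside was not tested. MYL9 was above the share outside in both batches. Single sections went both ways. In batch 1 TAGLN was at 7.14% under tissue and 4.9% outside in the third female section. It was at 7.74% and 13.2% in the third male one. In batch 2 TAGLN was at 3.12% and 1.98% in the first male section and at 18.7% and 37.1% in the first female one. ACTA2 was at 5.02% and 1.1% in the first male section of batch 1 and at 14.9% and 18.9% in the first female one. For any of the 9 genes the medians outside the tissue were 22.5% and 27.9%, so that the batch 2 median under tissue was below the median outside. The specimens of batch 2 differed in this. In the male one the shares under tissue and outside were 8.22% and 3.96%, 14.6% and 14.0%, and 11.1% and 7.84% in sections 1, 2 and 4. In the female one they were 27.6% and 51.4%, 20.5% and 39.3%, 19.1% and 62.5%, and 20.5% and 27.9%. The female shares outside came from 35, 28, 8 and 61 spots. The counts of joint detection and of patches given above take 1 UMI as detection and were not corrected for the shares found outside the tissue.

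As a sum, the contractile genes were higher towards the rim. The 9 genes summed to a median of 755 CPM in tissue spots that touch the outside and 286 CPM in the interior, higher at the edge in 14 of 15 *M. fascicularis* sections. ACTA2, TAGLN, DES and TPM2 were higher at the edge in 15 of 15, ACTG2 and CNN1 in 13 and MYL9 in 11. On few UMIs, MYLK was higher there in 12 and MYH11 in 8. The share of all features higher at the edge was not computed, so these counts cannot be set against it. Off the tissue, the sum was at a median of 893 CPM 1 spot away and 647 CPM beyond 2 spots, above the tissue interior in 14 and 15 of 15 sections. In absolute terms the spots off the tissue held little, between 2.39 and 18.5 contractile UMIs per 100 spots, against 24.1 to 288 per 100 tissue spots. The part of transcripts lying off the tissue in the edge and interior levels was not tested.

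Other genes were ranked by how closely their spot pattern followed that of the contractile set. Over 6090 genes, the within-section Pearson correlation with the summed contractile genes across spots had a median over 15 sections of -0.05 for the middle gene and 0.116 for the gene at the 99th percentile. The highest were IGFBP6 (0.391), a secreted binder of insulin-like growth factor, the matrix proteoglycan DCN (0.317), the prostaglandin synthase PTGDS (0.312) and the secreted Wnt antagonist SFRP4 (0.312). MGP, an inhibitor of vascular calcification, followed at 0.309, with ECRG4 (0.298), AEBP1 (0.289), the lipid carrier APOD (0.283), the glucose transporter SLC2A1 (0.254) and the elongation factor EEF1A1 (0.251). Each was positive in at least 13 of 15 sections. The spots of a section share a library and differ in depth, so these are descriptions and carry no p. As a scale, the correlation of each contractile gene with the sum of the others had a median of 0.286 for TAGLN, 0.276 for ACTA2, 0.212 for TPM2, 0.17 for MYL9, 0.133 for ACTG2, 0.112 for CNN1 and 0.0964 for DES. Endothelial genes stood lower than IGFBP6 and DCN, with PECAM1 at 0.121, VWF at 0.116 and EGFL7 at -0.00077. No other gene of the endothelium list was high enough in counts to be ranked. Neuron genes were at the far end, with STMN2 at -0.297 the lowest of all 6090.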

How the data were processed

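The authors deposited UMI counts per feature and spot for 19 sections, from Space Ranger 2.0.0 (12 sections) or 2.1.0 (7), per the file headers. The submitters' processing notes name the genome build Mmul_10 for all sections, although the *M. fascicularis* features carry ENSMFAG identifiers. For each section the authors deposited summed counts and, per gene, Moran's I as a score with its p-value and adjusted p-value; these were only described. Counts in the table and in the matrix differed for 0 features. Features without a symbol held 18.7% to 24.3% of UMIs in *M. fascicularis* and stayed in totals and tests under their identifiers. Replicate sections differed beyond sampling noise (chi-square per degree of freedom of at least 3.93 in 26 pairs), so none was treated as a repeat of the same library. For the main tests their UMIs were summed per title code.

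Groups followed the labelled species, sex and batch. UMI sums per title code, or per title code and spot class, were tested with edgeR 4.0.16 (TMM, filterByExpr, glmQLFTest; R 4.3.3) over all features, called at an adjusted p under 0.05, with DESeq2 1.42.0, limma 3.58.1 (voom), other size factors, no filter, sections as samples and left-out sections as alternatives. The 4 sums for batch and sex leave the spread largely to edgeR's shared estimate. Fitted differences are log2 fold changes. Spot classes used spots with at least 500 UMIs. Zero counts were given the upper limit that 3 counts set. The methods were tested on simulated data.

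All 9 contractile genes are named. Others are the 10 genes with the highest median correlation, with a mean of at least 0.05 UMIs per spot in 10 or more sections, and up to 4 called genes of a list with the smallest adjusted p. The genes and lists were chosen with earlier results of these data known. Depth-matched spots, spots outside another class, and fits without the first female section of batch 1 were added after seeing the data. Genes were not located on a genome, and the authors' Seurat clustering was not used here.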

Additional observations from a re-analysis of the deposited data

Results flagged for a closer look

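In a group of 4 sections, a section was singled out where its gap to the nearest other section exceeded Dixon's 95% critical value of the group's range, which chance does in about 1 of 20 groups; 9 of 36 combinations of gene and *M. fascicularis* group did. The first female section of batch 1 was the high one in 6 of them: ACTA2 at 383 CPM, ACTG2 at 68.3, CNN1 at 75.8, TAGLN at 342, DES at 23.6 and MYH11 at 1.24 CPM, the last from 2 UMIs. In that section the 9 genes summed to 1310 CPM, the fibroblast list to 3771 CPM, the highest of the 16 sections, and the endothelium list to 378 CPM, while the skeletal muscle list stood at 16.8 CPM. The part of these other genes in the contractile levels was not tested. With that section left out, the 4 region comparisons called the same numbers of contractile genes, 7, 7, 7 and 5. Over all features 4779 of 11334, 2303 of 10168, 2649 of 10172 and 1894 of 10204 were called.

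In the female specimen of batch 2, CNN1 in section 1 was low at 2.09 CPM and MYL9 in section 3 high at 131 CPM. In the male specimen of batch 2, MYH11 in section 1 was high at 0.621 CPM, from 2 UMIs, with the other sections at 0.

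Contrasts within the sections differed between the batches for 2 genes by an interaction term in edgeR with Benjamini-Hochberg adjustment. CNN1 in fibroblast-rich spots differed by -3.35 (batch 2 minus batch 1, adjusted p = 0.0237), and MYL9 in myelin-rich spots by -0.83 (adjusted p = 0.000473).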

How the results depend on the processing

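By batch, the count of contractile genes called was 2 with RLE size factors, DESeq2 and voom. It was 5 with no filter and 5 with sections as samples, and ran from 0 to 4 over left-out sections. All features called rose from 364 to 1279 with no filter and to 4524 with sections as samples. They ran from 115 to 942 over left-out sections. Replicate numbers did not pair the sections over all 4 specimens (24 same-numbered pairs, median correlation 0.019, 8 above 0.1), although the 4 pairs of the female and male specimens of batch 1 were at 0.238 to 0.431; with the replicate block 5 contractile genes and 4368 features were called by batch. By sex, none of the contractile genes was called under any of these settings, while 67 features were called with no filter, 25 with sections as samples and 5 with the replicate block. Without the title code block the count fell to 0 for neuron-, 2 for endothelium-, 1 for fibroblast- and 0 for myelin-rich spots. Over all features 62, 39, 46 and 0 were then called. Outside fibroblast-rich spots the count of contractile genes was 4 for neuron- and 3 for myelin-rich spots, beside 4412 of 11316 and 1357 of 9784 features. For myelin-rich spots it was 1 with spots ranked by their neighbours' myelin share, beside 26 of 10432 features. It was also 1 within 5 bands of UMI total, beside 1098 of 10613 features. In those bands ACTA2 (-0.17), ACTG2 (-0.20), TAGLN (-0.24) and DES (-0.35) changed sign. Leaving out a specimen or section gave 6 to 8 for neuron-, 7 to 8 for endothelium-, 7 to 8 for fibroblast- and 3 to 5 for myelin-rich spots. All features called ran from 3177 to 5110, 1022 to 3451, 1035 to 4551 and 568 to 2296 in the same order. The cause was not tested. With symbol features alone as the total, the sum of the 9 genes was 587 CPM in the male specimen of batch 1, 450.5 in the female one of batch 2 and 252 under the label *M. mulatta*, where all features in place of shared ones gave 187 CPM. Left-out sections moved it between 410 and 757 CPM, 448 and 502, 328 and 357, and 224 and 373 in the 4 *M. fascicularis* specimens in the order above. With 1 of the 2 sections it was 147 and 227 CPM (288 and 444 over shared symbols) under the label *M. mulatta* and 237 and 474 CPM (438 and 862) under *P. anubis*. A Moran's I of at least 0.1 as well left 49 of 84 entries. Detection at 2 UMIs gave a median log2 odds ratio of 2.95 over 3 pairs, and spots with at least 1000 UMIs 0.96 over 12 pairs. Without thinning, 65.9% and 52.5% of spots held any of the 9 genes. MYH11 and MYLK in *M. fascicularis* and all 9 genes under the label *M. mulatta* rested on few UMIs. The part of depth and of the gene models in these counts was not tested.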
